A study of Mus musculus with 9 samples.

Results

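The photoreceptor ribbon synapse was followed in whole mouse retina through 10 genes: Bsn, Pclo and Ctbp2 of the ribbon and its anchor, Rims1 and Rims2 of the active zone, Cplx3 and Cplx4 of the release machinery, and Cacna1f, Cacna2d4 and Cabp4 of the calcium channel. They were chosen by name, not by a threshold on their measured values, but with earlier results of these data known. All 10 were among the 55487 genes in the deposited table, and all 10 were abundant enough to be among the 21330 genes tested. Retinas were collected at postnatal day 21 (P21) from C57 BL/6J mice of 3 genotypes, with 3 bulk RNA-seq libraries per genotype and the retinas of 2 animals pooled in each library. Cre- retinas, which the labels also give as WT, carried no Cre transgene. The tHet retinas were heterozygous for floxed Tet1, floxed Tet2 and floxed Tet3, and the Tet tcKO retinas were homozygous for all of these alleles. Both of these genotypes carried Chx10-Cre-GFP, the transgene Tg(Chx10-EGFP/cre,-ALPP)2Clc/J, which drives Cre in retinal progenitor cells and is active in a mosaic of them. Animals with the transgene came from in-crosses of Cre+ parents, which the study used to give each animal 2 copies and so reduce the mosaicism. Cre- animals came from Cre- parents, so genotype and breeding line cannot be told apart in comparisons with Cre-.

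At most synapses, vesicles are docked at a flat active zone and are released after an action potential. Rods and cones instead release glutamate continuously, from vesicles tethered to a plate called the ribbon that stands on the presynaptic membrane of the terminal, next to L-type calcium channels. Light hyperpolarizes the cell, closes these channels and slows release onto bipolar and horizontal cells. Bipolar cells also build ribbons. For none of the genes followed here do counts from whole retina show which cells the transcripts came from. In the study, control and Tet tcKO retinas were stained for Bassoon, the protein that Bsn encodes, to examine ribbon synapses. It reported reduced Bassoon in the outer and inner synaptic layers of Tet tcKO retinas, with fewer labelled ribbon synapses in the outer layer at P21. That staining measures protein at synapses, while the present libraries give the transcript levels of Bsn and its partners in whole retina. The study also reported lower Cplx4 transcripts in Tet tcKO retinas, both in its bulk RNA-seq and in its RNA-seq of single nuclei.

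Reads counted on genes numbered 9627927 to 21108256 per library, and levels are in CPM, the count of a gene scaled to a fixed total of these reads. Fold changes are differences of log2(CPM + 0.5) fitted by limma over all 21330 genes (log2FC), with standard errors (SE) and Benjamini-Hochberg adjusted p-values. A gene was called when its log2FC was 1 or more in size with adjusted p below 0.01. The ribosomal RNA gene CT010467.1 took 28.7% of the reads of Tet tcKO replicate 3 and 3.72% of those of tHet replicate 3, against 0.0409 to 0.226% elsewhere, which lowers the CPM of every other gene in replicate 3 of Tet tcKO. Some results are therefore also given with CT010467.1 taken out of the totals. For others, among them levels per kilobase and sums of markers, only CPM as deposited is given. Gene-level reads of Tet3 fell short of a call (log2FC -0.99 against Cre-, SE 0.25, limma adjusted p = 0.0174), though they were called without replicate 2 of Tet tcKO (log2FC -1.17, adjusted p = 0.009), and those of Tet1 and Tet2 were not called either (adjusted p = 0.808 and 0.793). These counts include exons that remain after recombination. For the floxed exons themselves, the study reported a share of correctly spliced-in reads that fell from Cre- through tHet to Tet tcKO.

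In Tet tcKO retinas, transcripts of Cplx4, Cabp4 and Rims2 were lower than in Cre- retinas, by 9.69-fold, 3.28-fold and 2.23-fold, while those of Bsn, Pclo and Cplx3 were not called and overlapped between the genotypes. Thus 3 of the 10 genes were called lower and 0 higher, where 1.57% of all tested genes were called lower and 2.03% higher, 3.60% in all. An unadjusted p below 0.05 was reached by 6 of the 10 genes and by 16.1% of all tested genes, and against tHet by 7 and by 17.5%. The levels of Cplx4, Cabp4, Rims2, Ctbp2 and Cacna2d4 were lower in every Tet tcKO library than in any Cre- library, 5 of 10 genes, against 9.60% of all tested genes, and 0 were higher in every one, against 10.0%. For these genes the exact two-sided permutation p is 0.1, the smallest that 3 libraries against 3 can give. Against tHet, 4 of the 10 genes were called lower, the same 3 and Cacna1f, where 1.61% of all tested genes were called lower and 1.39% higher, 3.00% in all. In that comparison 6 of 10 genes were separated from the controls, with every Tet tcKO library below every tHet library, against 9.68% of tested genes, and 0 were above, against 7.35%. Of the 10 genes 5, namely Ctbp2, Rims2, Cplx4, Cacna2d4 and Cabp4, were lower in every Tet tcKO library than in all 6 control libraries, an order that 4.82% of tested genes share. The median log2FC of the 10 genes was -0.73 against Cre- and -0.82 against tHet, beside medians of 0.00 and -0.06 over all tested genes. The 2 comparisons share the Tet tcKO libraries. Against Cre-, 1 gene was called without replicate 3 of Tet tcKO or with CT010467.1 taken out, and against tHet 1 and 2 genes. The calls over all genes then shifted as well, from 434 higher and 334 lower against Cre- (56.5% higher) to 613 higher and 222 lower (73.4% higher) with CT010467.1 taken out, and the median log2FC of all genes to 0.14. In a bulk library, fewer photoreceptors, a shift from rods to cones, which the study reports, and less RNA per photoreceptor cannot be told apart.

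**Figure D1:**
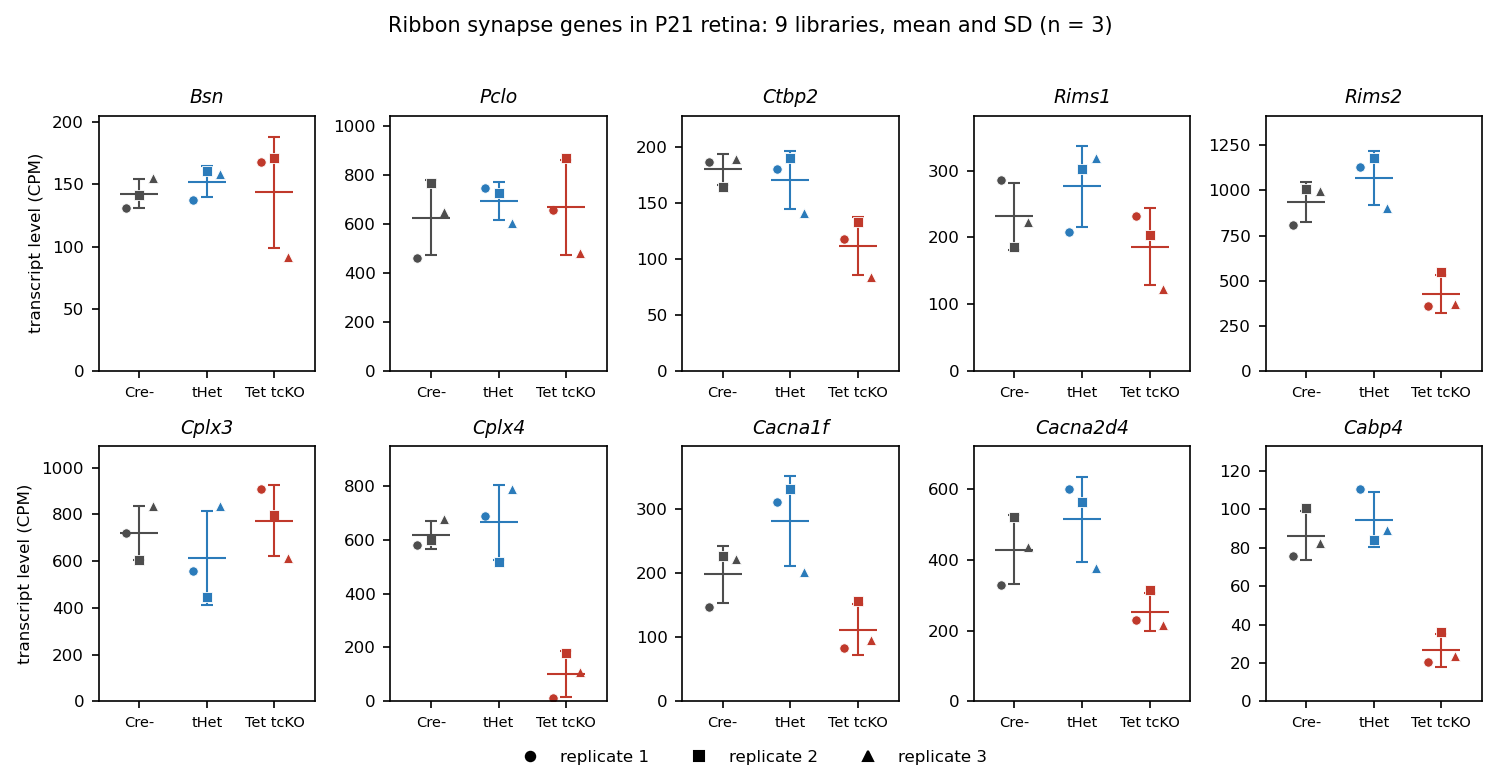
Transcript levels in CPM (vertical axes, from 0) of the 10 ribbon synapse genes in each of 9 libraries, with a panel per gene, genotypes along the horizontal axis, marker shape for the replicate, and horizontal dashes with bars for the mean and SD (n = 3). All Tet tcKO points of Cplx4 (12.4 to 181 CPM), Cabp4 (20.2 to 36.2 CPM) and Rims2 (359 to 549 CPM) lie below all control points, while those of Bsn, Pclo, Rims1 and Cplx3 overlap them.

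**Figure D2:**
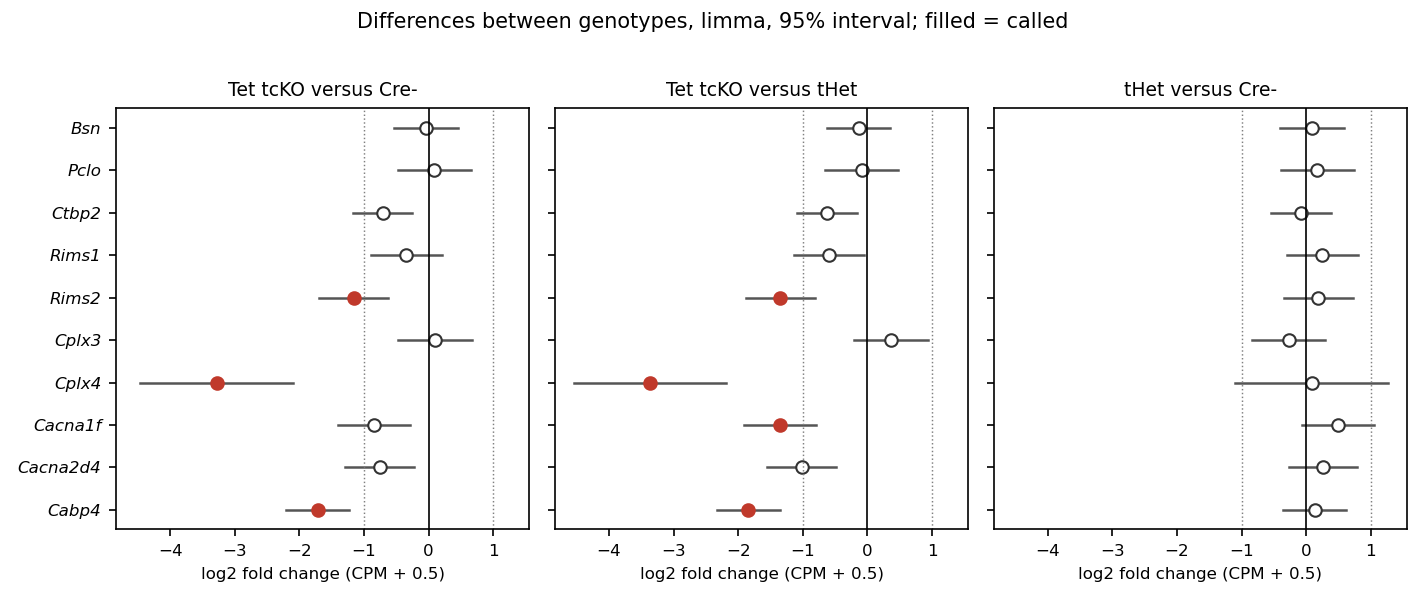
The log2FC of each gene (points) with its 95% interval (lines) in the 3 comparisons of genotypes, with filled points for called genes and dotted lines at a log2FC of -1 and 1. Cplx4, Cabp4 and Rims2 are filled in both comparisons of Tet tcKO with a control and Cacna1f in the one with tHet, and no gene is filled in tHet versus Cre-.

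Bsn encodes Bassoon, a large scaffold that anchors the ribbon to the active zone, and lies on chromosome 9 (108096022 to 108190384 in GRCm38, minus strand, ENSMUSG00000032589.14). Its level was 131, 142 and 155 CPM in replicates 1, 2 and 3 of Cre-, 138, 160.5 and 158 CPM in tHet, and 168, 171 and 91.9 CPM in Tet tcKO. Replicates 1 and 2 of Tet tcKO were above every control library and replicate 3 was below every one, so the groups overlapped. The log2FC against Cre- was -0.04 (95% interval -0.53 to 0.45, limma adjusted p = 0.979). With CT010467.1 taken out of the totals, replicate 3 stood at 90.3% of the Cre- mean rather than 64.4% and the log2FC turned to 0.12, and to 0.25 without that replicate. Exons of Bsn overlap those of Gm47303 on the same strand. Pclo, on chromosome 5 (14514918 to 14863459, plus strand, ENSMUSG00000061601.15), encodes Piccolo, a relative of Bassoon of which photoreceptors use a short form. It was at 461, 765 and 646 CPM in Cre-, 744, 727 and 602 CPM in tHet, and 656, 867 and 479 CPM in Tet tcKO, and the groups overlapped. Its log2FC was 0.09 against Cre- (95% interval -0.48 to 0.65, limma adjusted p = 0.956) and -0.09 against tHet, and the sign of the second turned to 0.06 without CT010467.1. Changes within these intervals, in either direction, are not shown to be absent. Exons of Pclo overlap those of Gm26918 and Gm26954 on the opposite strand.

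Ctbp2, on chromosome 7 (132987563 to 133124354, minus strand, ENSMUSG00000030970.16), gives rise to a transcriptional corepressor and, from an internal start, to RIBEYE, the main building block of the ribbon. Gene-level counts do not separate their transcripts, and exons of Ctbp2 also overlap exons of Fgfr2 on the same strand. Ctbp2 was at 187, 164 and 189 CPM in Cre-, 181, 190.0 and 141 CPM in tHet, and 118, 133 and 83.5 CPM in Tet tcKO. Every Tet tcKO library was below every control library, and the nearest pair was replicate 2 of Tet tcKO and replicate 3 of tHet. The log2FC of -0.71 against Cre- (SE 0.22, 95% interval -1.17 to -0.25, limma adjusted p = 0.0614) and that of -0.63 against tHet (limma adjusted p = 0.114) were not called. With TMM scaling, which sets library scales from the bulk of genes, the adjusted p against Cre- was 0.00683 at a log2FC of -0.70, so that the size alone kept it from a call. Without CT010467.1 the 3 Tet tcKO libraries stood at 65.4, 74.2 and 65.0% of the Cre- mean. The libraries of Tet tcKO were then close to each other, and all 3 remained below the controls.

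RefSeq's table for GRCm38.p6 holds windows from 250 bases before to 50 bases after annotated starts. Of these, 7 were read here, for 6 of the 10 genes: Bsn, Pclo, Ctbp2, Rims1, Cplx3 and Cacna1f. Rims2, Cacna2d4 and Cabp4 have none in it. Cplx4 was left out of this reading, so its absence here does not show that it lacks a window. Since TET enzymes act on methylated cytosines, most of which in mammals lie in CpG dinucleotides, 4 windows are printed with every CpG in capitals to show how far the starts differ. They are read 5′ to 3′ on the minus strand, the strand of their genes. They are the windows of Bsn (chr9:108190334-108190633) and Cplx3 (chr9:57606232-57606531) and the upstream (chr7:133081811-133082110) and downstream (chr7:133015198-133015497) windows of Ctbp2. None of the 3 genes was called in any comparison by limma.
Bsn: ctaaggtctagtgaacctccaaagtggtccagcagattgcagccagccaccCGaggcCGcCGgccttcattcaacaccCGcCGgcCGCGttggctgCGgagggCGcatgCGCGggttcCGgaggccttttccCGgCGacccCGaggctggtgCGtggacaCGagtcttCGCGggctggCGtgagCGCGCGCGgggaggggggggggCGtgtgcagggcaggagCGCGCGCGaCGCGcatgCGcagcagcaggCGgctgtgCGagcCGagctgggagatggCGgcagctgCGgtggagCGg
Ctbp2 upstream window: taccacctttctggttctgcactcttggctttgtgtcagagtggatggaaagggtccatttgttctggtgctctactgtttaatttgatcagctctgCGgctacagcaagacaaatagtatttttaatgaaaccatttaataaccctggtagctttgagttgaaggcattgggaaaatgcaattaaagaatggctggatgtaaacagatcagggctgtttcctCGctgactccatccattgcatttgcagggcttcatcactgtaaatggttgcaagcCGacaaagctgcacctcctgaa
Ctbp2 downstream window: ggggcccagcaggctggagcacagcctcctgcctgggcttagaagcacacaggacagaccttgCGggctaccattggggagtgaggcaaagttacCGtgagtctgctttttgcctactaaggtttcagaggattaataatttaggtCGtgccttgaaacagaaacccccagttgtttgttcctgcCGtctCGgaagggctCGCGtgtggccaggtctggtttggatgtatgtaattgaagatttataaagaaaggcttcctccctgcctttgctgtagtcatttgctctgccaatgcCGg
Cplx3: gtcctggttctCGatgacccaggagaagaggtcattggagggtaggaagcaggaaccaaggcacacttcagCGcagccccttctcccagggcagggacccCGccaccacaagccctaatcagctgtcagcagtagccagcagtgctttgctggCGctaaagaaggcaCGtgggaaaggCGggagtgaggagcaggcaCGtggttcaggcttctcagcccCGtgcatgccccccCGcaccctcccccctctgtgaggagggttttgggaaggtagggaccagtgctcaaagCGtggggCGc
The Bsn window holds 38 CpG, the upstream Ctbp2 window 3 and the downstream one 8, beside a median of 7 over all 32851 windows. The windows of Pclo, Rims1, Cplx3 and Cacna1f hold 35, 26, 11 and 5. Of the 6 genes with a window read here only Cacna1f was called, and only against tHet. The called genes Cplx4, Cabp4 and Rims2 are not among them, so the counts are given with no relation to the calls. The letters TAATCC, the core recognized by the photoreceptor factor CRX, occur on either strand in 1 of the 7 windows, the downstream one of Ctbp2, where they are on the reverse strand (GGATTA), and in 7.06% of all windows. The letters TGCTGA, part of the element recognized by the rod factor NRL, occur on either strand in 1 of the 7, that of Cplx3 on the reverse strand (TCAGCA), and in 19.5% of all windows. These matches describe the letters and are not measured binding sites, and DNA methylation was not analysed here.

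RIM proteins tie vesicles to calcium channels at the active zone, and RIM2, the product of Rims2, is the main large RIM of photoreceptor terminals. Rims2, on chromosome 15 (39198261 to 39684372, plus strand, ENSMUSG00000037386.16), was at 808, 1006 and 998 CPM in Cre-, 1131, 1179 and 901 CPM in tHet, and 359, 549 and 369 CPM in Tet tcKO. The highest Tet tcKO library, replicate 2, was below the lowest control, replicate 1 of Cre-. The log2FC was -1.16 against Cre- (SE 0.26, limma adjusted p = 0.00657) and -1.35 against tHet (SE 0.26, limma adjusted p = 0.0022), both called. The size lies near the threshold of 1, and the call against Cre- was lost without CT010467.1 (log2FC -0.996, adjusted p = 0.00658), without a filter on low values (adjusted p = 0.0297) and without replicate 2 or 3 of Cre-, replicate 1 of tHet, or replicate 1 or 3 of Tet tcKO (log2FC -1.05 to -1.16, adjusted p = 0.0128 to 0.053). Against tHet it was lost without that filter (adjusted p = 0.0138) and without replicate 1 or 2 of tHet or replicate 1 or 3 of Tet tcKO (log2FC -1.24 to -1.30, adjusted p = 0.0114 to 0.0235). Under edgeR's quasi-likelihood test the log2FC against Cre- was -1.13 (adjusted p = 0.00159) and under DESeq2 -1.14 (adjusted p = 2.48e-10).

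Rims1 encodes RIM1, the paralog that leads at many brain synapses, and lies on chromosome 1 (22286251 to 22805994, minus strand, ENSMUSG00000041670.17). It was at 286, 186 and 224 CPM in Cre-, 208, 303 and 319 CPM in tHet, and 232, 204 and 122 CPM in Tet tcKO, with overlap between all groups. The log2FC of -0.34 against Cre- (95% interval -0.89 to 0.20, limma adjusted p = 0.645) and of -0.59 against tHet (95% interval -1.14 to -0.05, limma adjusted p = 0.229) were not called. Within a library, Rims2 CPM divided by Rims1 CPM was 2.83, 5.40 and 4.46 in Cre-, 5.45, 3.89 and 2.83 in tHet, and 1.55, 2.69 and 3.02 in Tet tcKO. On the log2 scale the mean was 2.03 ± 0.48 (SD, n = 3) in Cre- and 1.21 ± 0.51 (SD, n = 3) in Tet tcKO, and replicate 3 of Tet tcKO lay above replicate 1 of Cre-, so the ranges overlapped. A ratio within a library does not move with the library's total. It is given as a description, with no test.

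Complexins clamp and trigger the fusion of docked vesicles, and Cplx3 and Cplx4 encode the complexins of ribbon terminals, with complexin 3 also made by amacrine cells. Cplx4, on chromosome 18 (65955722 to 65970237, minus strand, ENSMUSG00000024519.6), had the widest difference of the 10 genes. It was at 580.3, 598 and 676 CPM in Cre-, 690.2, 516 and 791 CPM in tHet, and 12.4, 181 and 110.2 CPM in Tet tcKO. Replicate 1 of Tet tcKO held 2.00% of the Cre- mean, replicate 2 held 29.3% and replicate 3 held 17.8%, a span of 14.7-fold within the genotype. All 3 were far below the lowest control, replicate 2 of tHet. The log2FC was -3.28 against Cre- (SE 0.57, 95% interval -4.46 to -2.09, limma adjusted p = 0.000798) and -3.36 against tHet (SE 0.57, limma adjusted p = 0.000686), both called. The direction held in every alternative tried, with a log2FC of -2.12 against Cre- without replicate 1 of Tet tcKO, but the call did not. Against Cre-, the adjusted p was 0.0194 without replicate 3 of Tet tcKO (log2FC -3.68), 0.0131 with TMM scaling, 0.0177 without CT010467.1, 0.0128 without a filter on low values, 0.0254 by edgeR's quasi-likelihood test (log2FC -2.59) and 0.0145 by DESeq2 (log2FC -2.61). Against tHet the adjusted p in the same settings was 0.0212, 0.0143, 0.017, 0.0122, 0.0252 and 0.0121.

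Cplx3, on chromosome 9 (57599992 to 57606281, minus strand, ENSMUSG00000039714.9), did not follow Cplx4. It was at 720.2, 606 and 838 CPM in Cre-, 557, 448 and 835 CPM in tHet, and 911, 797 and 614 CPM in Tet tcKO. Replicate 1 of Tet tcKO, the library with the least Cplx4, had the most Cplx3 of all 9 libraries, and the groups overlapped. The log2FC was 0.10 against Cre- (95% interval -0.47 to 0.66, limma adjusted p = 0.951) and 0.37 against tHet (95% interval -0.20 to 0.94, limma adjusted p = 0.559). Within a library, Cplx4 CPM divided by Cplx3 CPM was 0.806, 0.987 and 0.807 in Cre-, 1.24, 1.15 and 0.946 in tHet, and 0.0136, 0.227 and 0.180 in Tet tcKO. On the log2 scale the ratio was -0.21 ± 0.17 (SD, n = 3) in Cre- and -3.59 ± 2.23 (SD, n = 3) in Tet tcKO, a difference of -3.37 that ran from -4.10 to -2.09 when 1 library was left out, the latter without replicate 1 of Tet tcKO. The Tet tcKO libraries were below all 6 controls in this ratio, which the CT010467.1 reads do not enter.

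**Figure D3:**
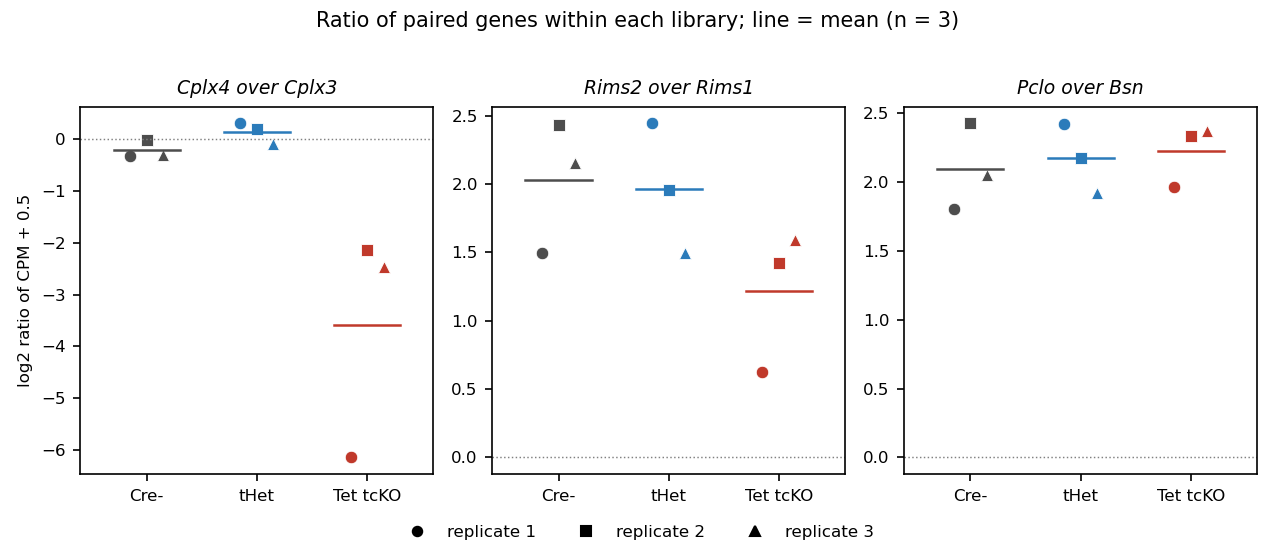
The log2 ratio of CPM + 0.5 (vertical axes) of Cplx4 to Cplx3, Rims2 to Rims1 and Pclo to Bsn within each of 9 libraries, by genotype (horizontal axis), with marker shape for the replicate and lines for the mean (n = 3). Cplx4 over Cplx3 lies between -6.15 and -2.14 in Tet tcKO and between -0.31 and 0.31 in the controls, while Pclo over Bsn overlaps among all genotypes.

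Release at these terminals is driven by Cav1.4, an L-type calcium channel whose pore is encoded by the X-linked gene Cacna1f (chromosome X, 7607083 to 7635196, plus strand, ENSMUSG00000031142.17). Its level was 147, 226 and 222 CPM in Cre-, 311, 332 and 201 CPM in tHet, and 83.8, 157 and 95.2 CPM in Tet tcKO. Every Tet tcKO library was below every tHet library, but replicate 2 of Tet tcKO was above replicate 1 of Cre-. The log2FC was -0.85 against Cre- (SE 0.27, 95% interval -1.41 to -0.30, limma adjusted p = 0.0634), not called, and -1.35 against tHet (SE 0.27, limma adjusted p = 0.00302), called. The call against tHet was lost without CT010467.1 (log2FC -1.20, adjusted p = 0.0119), without a filter on low values (adjusted p = 0.0189), and without replicate 1 or 2 of tHet or replicate 1 or 3 of Tet tcKO (log2FC -1.17 to -1.26, adjusted p = 0.0168 to 0.0394). Part of the gap between the comparisons lies in the controls, with a mean of 282 ± 70.4 CPM in tHet and 198 ± 44.8 CPM in Cre- (SD, n = 3 each), a difference that was not called (log2FC 0.50, 95% interval -0.06 to 1.05, limma adjusted p = 1.00). The window at its start (chrX:7606853-7607152, plus strand, CpG in capitals) is shown as that of a gene lower in Tet tcKO than in tHet.
Cacna1f: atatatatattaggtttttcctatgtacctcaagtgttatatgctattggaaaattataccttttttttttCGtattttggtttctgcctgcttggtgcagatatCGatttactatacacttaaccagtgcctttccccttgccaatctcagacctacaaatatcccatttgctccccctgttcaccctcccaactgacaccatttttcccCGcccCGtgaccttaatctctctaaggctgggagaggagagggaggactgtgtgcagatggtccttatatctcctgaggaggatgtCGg
It holds 5 CpG and neither of the searched motifs.

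Cacna2d4, on chromosome 6 (119236526 to 119352407, plus strand, ENSMUSG00000041460.16), encodes the auxiliary subunit that carries Cav1.4 to the terminal. It was at 327, 522 and 436 CPM in Cre-, 602, 563 and 378 CPM in tHet, and 229.6, 314 and 214 CPM in Tet tcKO. All Tet tcKO libraries were below all controls, though replicate 2 of Tet tcKO and replicate 1 of Cre- were close. The log2FC was -0.76 against Cre- (SE 0.26, 95% interval -1.29 to -0.22, limma adjusted p = 0.0915) and -1.02 against tHet (SE 0.26, 95% interval -1.55 to -0.48, limma adjusted p = 0.0188), neither called. Against tHet the gene was called when replicate 3 of tHet was left out (log2FC -1.22, adjusted p = 0.00299). Cabp4, on chromosome 19 (4135423 to 4144033, minus strand, ENSMUSG00000024842.8), encodes a calmodulin-like protein that binds Cav1.4 and lets it open at more negative voltages. Its level was 75.7, 101 and 82.6 CPM in Cre-, 111, 83.8 and 89.1 CPM in tHet, and 20.2, 36.2 and 23.4 CPM in Tet tcKO. Every Tet tcKO library was below every control, and they held 23.4, 42.0 and 27.1% of the Cre- mean in replicates 1, 2 and 3. The log2FC was -1.71 against Cre- (SE 0.23, limma adjusted p = 6.95e-05) and -1.85 against tHet (SE 0.23, limma adjusted p = 4.47e-05). Cabp4 was the only one of the 10 genes called against Cre- in all 20 alternatives, with a log2FC between -1.96 and -1.54 and an adjusted p of at most 0.00345, and it was called in all 20 against tHet as well. Exons of Cabp4 overlap those of Gpr152 on the opposite strand.

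No gene of the 10 was called in tHet versus Cre- retinas by limma, where 0.0422% of all tested genes were called, and 0 had an unadjusted p below 0.05, beside 970 of the 21330 tested genes (4.55%). Calls numbered 0 under edgeR and DESeq2 too. The tHet and Cre- ranges overlapped for all 10 genes, while every tHet library was below every Cre- library for 5.37% of tested genes and above for 5.78%, and the log2FC ran from -0.27 for Cplx3 to 0.50 for Cacna1f. The 95% interval of Cplx4, which varied most, went from -1.10 to 1.27, so that changes past 1 on the log2 scale in either direction lie within it.

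Levels of different genes were compared per kilobase of annotated exon. In Cre- retinas the order from the top was Cplx4 (318 ± 26.4 CPM per kilobase, SD, n = 3), Cplx3 (244 ± 39.4) and Rims2 (90.2 ± 10.8), each with a library range apart from the next gene. Cacna2d4 (45.2), Rims1 (31.5), Ctbp2 (28.9), Pclo (27.8), Cabp4 (24.5) and Cacna1f (21.8) followed, each overlapping its neighbour in this order, and Bsn came last at 8.95 ± 0.754 CPM per kilobase. In Tet tcKO retinas Cplx3 led at 262 ± 50.8 CPM per kilobase, apart from all others. Cplx4 (52.1 ± 43.6) and Rims2 (41.0 ± 10.3) came next with overlapping ranges, and Cabp4 was last at 7.56 ± 2.42 CPM per kilobase, overlapping Bsn at 9.01 ± 2.82. In tHet retinas the first 3 places and the last were as in Cre-, with Cplx4 and Cplx3 overlapping.

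The Tet tcKO libraries were not alike. Replicate 2 had the highest level of the 3 for 8 of the 10 genes, all but Rims1 and Cplx3. Replicate 1 had the lowest for Rims2, Cplx4, Cacna1f and Cabp4, and replicate 3 for the other 6. With CT010467.1 taken out, replicate 1 was the lowest for 6 genes and replicate 3 for 3. Over the 9 libraries, Pearson's r of log2 levels was 0.98 between Rims2 and Cabp4, 0.97 between Cacna1f and Cacna2d4, 0.95 between Rims2 and Cacna1f, and 0.92 between Cplx4 and Cabp4. Cplx3 had an r of -0.38 with Cplx4 and -0.45 with Rims2. These values describe 9 libraries that share genotypes and differ in how much of their reads CT010467.1 takes.

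**Figure D4:**
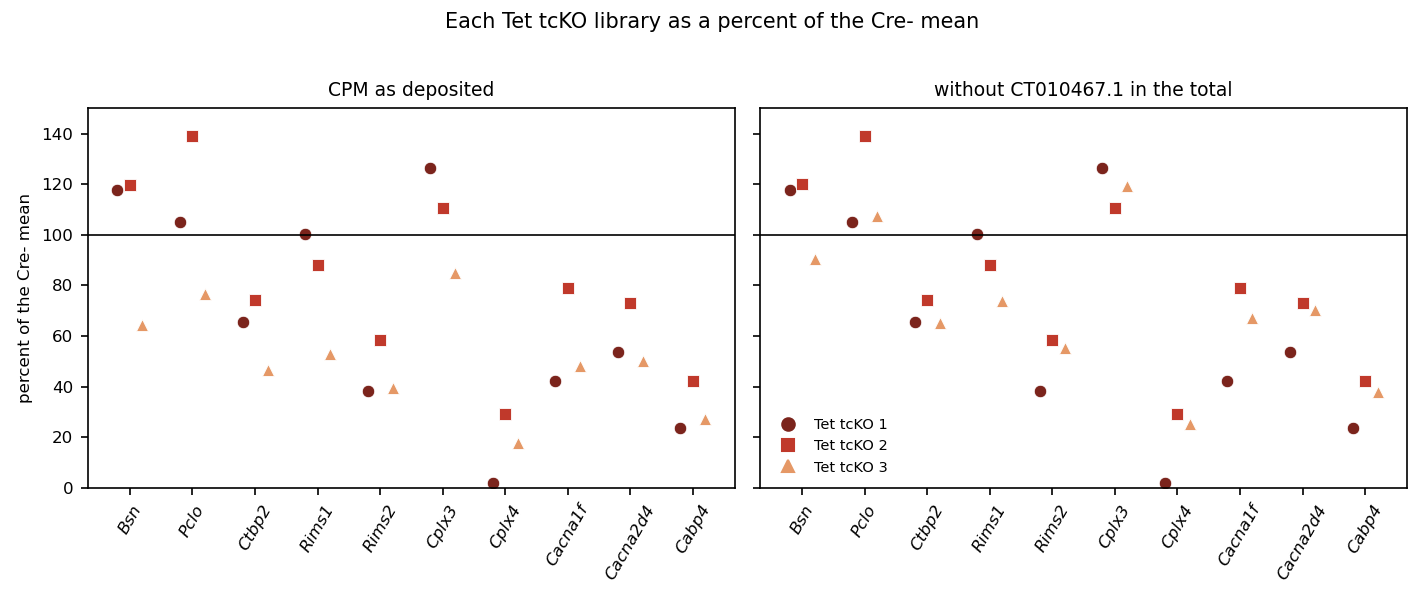
The level of each of the 10 genes in each Tet tcKO library as a percent of the Cre- mean (vertical axis), for CPM as deposited (left) and with CT010467.1 taken out of the totals (right), with marker shape for the replicate and a line at 100%. Replicate 3 moves up on the right, from 85.1 to 119% for Cplx3 and from 17.8 to 25.0% for Cplx4, while Cplx4, Cabp4, Rims2, Ctbp2, Cacna1f and Cacna2d4 stay below the line in all 3 libraries on both sides.

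The gene with the most similar profile to each of the 10, among 17419 genes with a mean of at least 1 CPM and over the same 9 libraries, was also read. It was Cngb1, a subunit of the rod cyclic nucleotide-gated channel, for Cabp4 (r = 0.995), Otor for Cplx4 (0.988), Wdr63 for Rims2 (0.993), Pfkfb2 for Cacna1f (0.989) and Rrp1b for Cacna2d4 (0.995). For the others it was Chrna2 for Ctbp2 (0.986), Lrrc41 for Bsn (0.994), Luc7l2 for Pclo (0.970), Galnt15 for Rims1 (0.974) and Tceal5 for Cplx3 (0.971). These values describe likeness over 9 libraries, and no function is read from them.

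Levels were also fitted relative to Crx, a transcription factor gene of rods and cones that some bipolar cells also express. The Cre- libraries held 1110.1 ± 43.0 CPM of Crx (SD, n = 3) and those of Tet tcKO 888 ± 171 CPM (SD, n = 3). With CT010467.1 taken out of the totals these were 1111 ± 42.9 and 981 ± 12.0 CPM. Crx itself was not called against Cre- (log2FC -0.34, limma adjusted p = 0.665). Relative to it, 1 of the 10 genes was called against Cre-, Cabp4, with a log2FC of -1.37 (SE 0.24, limma adjusted p = 0.00298), where 5.13% of all genes were called in either direction. Cplx4 was at -2.94 (95% interval -4.60 to -1.27, adjusted p = 0.0222) and Rims2 at -0.82 (95% interval -1.26 to -0.37, adjusted p = 0.0186), short of the call. Bsn, Pclo and Cplx3 were at 0.30, 0.43 and 0.44, with 95% intervals that reach from below 0 to 0.68, 0.88 and 1.10. The call of Cabp4 was lost without replicate 2 or 3 of Cre-, and 2 genes were called without replicate 1 of Tet tcKO.

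Rod and cone markers moved in the same libraries. Of 11 rod markers, 9 were called lower and 0 higher in Tet tcKO versus Cre-, and their summed level was 4683 to 9061 CPM in Tet tcKO against 23921 to 26825 CPM in Cre-. Of 12 cone markers, 8 were called higher and 1 lower (Pde6h, log2FC -2.95), with sums of 2105 to 3379 against 855 to 983 CPM. No marker of either list was at 0 in all libraries. Nrl, the rod determinant, was at 63.4, 144 and 92.4 CPM in replicates 1, 2 and 3 of Tet tcKO, the same order as Cplx4, Rims2, Cacna1f and Cabp4. Of 9 bipolar markers 3 were called lower and 1 higher against Cre-, and 0 lower and 1 higher against tHet by limma, with sums of 1023 to 1787 CPM in Tet tcKO against 1691 to 1925 CPM in Cre-. Sums of pigment epithelium markers were 18.1 to 30.2 CPM against 34.7 to 120.0 CPM, and those of lens markers 3.15 to 14.1 against 9.65 to 44.4 CPM. The lowest Tet tcKO sums of cone, bipolar and pigment epithelium markers were those of replicate 3, whose CPM is lowered by CT010467.1. Of 7 amacrine markers 1 was called lower, of 6 Müller glia markers 2 lower, of 6 microglia markers 1 higher, of 5 pigment epithelium markers 3 lower, of 5 markers shared by rods and cones 2 lower and 1 higher, and of 4 horizontal, 6 ganglion cell and 4 tested lens markers 0 by limma, all against Cre-. Several of these calls were lost in some of 20 alternatives, in 10 for Trpm1, 4 for Bhlhe23 and 4 for Prkca of the bipolar list, 10 for Cx3cr1 of the microglia list, 5 for Rpe65, 8 for Rgr and 9 for Lrat of the pigment epithelium list, 5 for Slc6a9 of the amacrine list and 3 for Glul of the Müller glia list. Cx3cr1 was not called against tHet (log2FC 0.64, limma adjusted p = 0.283). The part of these shifts in the levels of the ribbon synapse genes was not tested.

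Of 25 other genes of the photoreceptor terminal, 0 were called by limma in either direction against Cre- or against tHet, and their median log2FC against Cre- was -0.17. Nearest to a call were Slc17a7, the vesicular glutamate transporter that fills photoreceptor vesicles, at a log2FC of -1.07 (SE 0.25, limma adjusted p = 0.0107), and Unc119, a lipid-binding protein of the terminal that binds the ribbon, at -0.92 (limma adjusted p = 0.0192). Slc17a7 was at 744, 616 and 555 CPM in Cre-, 634, 676 and 512 CPM in tHet, and 310.5, 397 and 220.4 CPM in Tet tcKO. Its Tet tcKO libraries were below all 6 controls. Cacnb2, the beta subunit of the photoreceptor calcium channel, had a log2FC of -0.78 (95% interval -1.34 to -0.22, adjusted p = 0.0965). Erc2, which with its relative Erc1 scaffolds the active zone, was at 0.25 (95% interval -0.25 to 0.76, adjusted p = 0.764).

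Among 19 paralogs of the 10 genes, 2 were called lower and 1 higher against Cre-. Cabp5, a calcium-binding relative of Cabp4 found mainly in bipolar cells, was at 204, 139 and 227 CPM in Cre-, 124, 117 and 103 CPM in tHet, and 819, 687 and 445 CPM in Tet tcKO. Every Tet tcKO library was above every control, opposite to Cabp4, with a log2FC of 1.76 (SE 0.25, limma adjusted p = 0.000119). Cacna1s, an L-type pore subunit best known from skeletal muscle, had a mean of 24.4 ± 1.59 CPM (SD, n = 3) in the Cre- libraries and of 6.47 ± 2.64 CPM (SD, n = 3) in those of Tet tcKO (log2FC -1.90, limma adjusted p = 0.000141). Cabp2 went from 6.59 ± 0.456 to 1.66 ± 1.17 CPM (log2FC -1.91, limma adjusted p = 0.00374), a call lost in 8 of 20 alternatives, among them without replicate 3 of Cre- or replicate 1 or 3 of Tet tcKO (adjusted p = 0.0144 to 0.0299). Without that replicate 1 its log2FC was -1.34. In tHet it was at 3.45 ± 0.522 CPM (SD, n = 3), and it was not called against tHet (log2FC -1.06, limma adjusted p = 0.139). Cplx1 and Cplx2, the complexins of conventional synapses, were not called, at -0.65 (95% interval -1.27 to -0.02) and 0.69 (95% interval 0.10 to 1.28). Cacna1d, the pore gene of the related channel Cav1.3, was at -0.18, and Ctbp1, the paralog that makes no ribbon protein of RIBEYE's kind, at 0.06.

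Partners across the cleft were read beside them. Of 8 genes of the ON bipolar cascade, which receives the photoreceptors' glutamate, 3 were called lower against Cre- and 0 higher. They were Trpm1, the cation channel of the dendritic tip (log2FC -2.16, limma adjusted p = 0.00746), Nyx, which encodes nyctalopin and holds that channel in place (-2.16, adjusted p = 0.00258), and Gnb5 of the regulator complex (-1.37, adjusted p = 0.000625). Gnb5 was called in all 20 alternatives, though counts from whole retina do not show which cells its transcripts came from. Without replicate 1 of Tet tcKO the log2FC was -1.27 for Trpm1 and -1.38 for Nyx. Against tHet, Nyx (log2FC -1.86, limma adjusted p = 0.00965) and Gnb5 were called and Trpm1 was not (log2FC -2.11, limma adjusted p = 0.0106). The call of Trpm1 was lost in 10 of 20 alternatives, among them edgeR (adjusted p = 0.071), DESeq2 (adjusted p = 0.0877) and the fits without replicate 3 of Cre- or replicate 1 or 3 of Tet tcKO (adjusted p = 0.0258 to 0.0767). That of Nyx was lost in 7 of 20, among them edgeR (adjusted p = 0.0266), DESeq2 (adjusted p = 0.0284) and the fit without replicate 3 of Tet tcKO (adjusted p = 0.0321). Of 8 genes for adhesion and matrix at the terminal, Elfn2, which encodes an adhesion protein that binds the bipolar cells' glutamate receptor across the cleft, was called higher (log2FC 1.17, limma adjusted p = 0.00311) and 0 lower, and its relative Elfn1, which serves rod terminals, was at 0.09 (95% interval -0.40 to 0.59). The call of Elfn2 was lost in 4 of 20 alternatives, without a filter on low values (adjusted p = 0.0134) and without replicate 2 or 3 of Cre- or replicate 1 of Tet tcKO (adjusted p = 0.0129 to 0.0344).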

How the data were processed

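The deposited table holds CPM per gene and library. Per the labels and the study's methods, the authors trimmed reads (Trim Galore 0.6.7), aligned them to mm10 (STAR 2.7.0f), counted them per gene (HTSeq 0.11.2) and scaled the counts to CPM. The use of strand in counting is not given in the sources used here. The authors' columns of fold changes, p-values, FDR, calls and group averages were not used. All 9 libraries entered 1 limma fit (3.58.1, R 4.3.3) of log2(CPM + 0.5), with genes kept at 0.5 CPM or more in 3 libraries or more. It was tested on simulated counts. These had a common spread setting for all genes and no library with a surplus of CT010467.1, so such a library was not covered. Whole reads were recovered for 100% of positive values (tolerance 0.02 reads) and gave depths, TMM scaling and the edgeR (4.0.16) and DESeq2 (1.42.0) alternatives. One read was worth 0.0474 to 0.104 CPM. Nothing says more of the replicates than that animals were pooled by 2, so p-values measure the spread between these libraries. The 10 genes and all lists (paralogs, other genes of the terminal, partners, markers) were chosen with earlier results of these data known. Named genes are the 10, Crx, Tet1 to Tet3, the called genes of the other lists (at most the 5 with the widest change each) and the gene with the most similar profile to each of the 10. Genes named outside this rule (Slc17a7, Unc119, Cacnb2, Erc2, Cplx1, Cplx2, Cacna1d, Ctbp1, Elfn1) were chosen after their values were seen. Locations are from GENCODE M21 (GRCm38), which matched 55141 of 55487 IDs.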

Additional observations from a re-analysis of the deposited data

How the results depend on the processing

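Against Cre-, 3 of the 10 genes were called. Without a filter on low values it was 1, without CT010467.1 1, and with 1 library left out 1 to 3. Against tHet 4 were called, and it was 1 without the filter, 2 without CT010467.1 and 1 to 5 with 1 library left out. Relative to Crx 1 was called, and 0 to 2 with 1 library left out. TMM scaling, edgeR, DESeq2 and TMM scaling without CT010467.1 (chosen after seeing the data) each gave 2 and 3. Signs turned only for differences near 0. Without CT010467.1, Bsn was at 0.12 against Cre- and 0.0085 against tHet and Pclo at 0.058 against tHet. With 1 library left out, Bsn ran from -0.20 to 0.25 against Cre- and from -0.29 to 0.16 against tHet, Pclo from -0.12 to 0.30 and from -0.30 to 0.13, and Cplx3 from -0.032 to 0.25 against Cre-. In tHet versus Cre-, the ranges were -0.031 to 0.33 for Pclo, -0.17 to 0.045 for Ctbp2 and -0.048 to 0.26 for Cplx4. The cause was not tested. Over all genes, calls against Cre- and tHet numbered 768 and 640, 417 and 351 without the filter, and 1145 and 1046 by DESeq2. In tHet versus Cre- they numbered 9, 1 without the filter, with TMM scaling, without CT010467.1 or by edgeR, and 40 by DESeq2. With adjusted p below 0.05 they numbered 1156, 1104 and 20.

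A fit with the replicate number as a block called 3, 5 and 0 of the 10 genes in Tet tcKO versus Cre-, Tet tcKO versus tHet and tHet versus Cre-, the fifth being Cacna2d4 (adjusted p = 0.00319), and 1127, 1125 and 40 of all genes. Deviations from group means had a mean correlation of 0.111 (-0.35 to 0.56) over 9 pairs of libraries with the same number. For 18 pairs with different numbers it was -0.0515 (-0.57 to 0.50). Deviations within a group of 3 sum to 0, so these correlations are not independent. They cannot decide whether the numbers pair the libraries.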
